A study of Rattus norvegicus with 9 samples.

Results

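The genes described here are the myosin light chains of striated muscle and the kinase that phosphorylates them, Myl1, Mylpf, Myl2, Myl3, Myl6b, Myl4 and Mylk2. They were chosen by name, by matching the rat gene ID of each row to a RefSeq symbol. Of these 7 genes, 6 were found among the 13752 gene IDs listed over all libraries, and all 6 were listed in each of the 9 libraries and passed the filter on low counts. The seventh, Myl6b, which RefSeq lists as a pseudogene in the rat, did not match by gene ID and was not analysed here. RefSeq calls the row of Mylpf (gene ID 24584) Myl11; the others were Myl1 (56781), Myl2 (363925), Myl3 (24585), Myl4 (688228) and Mylk2 (117558).

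The libraries came from the gastrocnemius, a calf muscle of mixed fibre types, of male rats aged 8 weeks, in 3 groups of 3. SHAM animals had a sham operation. DN animals had a sciatic nerve injury, and DN-SM animals had the same injury followed by daily electrical stimulation for 4 weeks, through electrodes on the skin of the left leg, at 25 V, 1 mA and 2 Hz with a pulse width of 300 ms. All 3 groups were anaesthetised and fitted with electrodes, which in SHAM and DN stayed on for 10 minutes without current. The labels give no strain, no kind of nerve injury, no day of collection for SHAM and DN, and do not state that the libraries are from separate animals, so p-values measure only the spread between these samples.

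Each myosin head carries 1 essential and 1 regulatory light chain, which stiffen its lever arm. In adult rodent muscle, fast fibres use Myl1 (essential) and Mylpf (regulatory), and slow fibres use Myl3 (essential) and Myl2 (regulatory), which the heart ventricle also uses. Myl4 is the essential chain of embryonic muscle and of the atrium. Mylk2, the skeletal muscle light chain kinase, is switched on by calcium and calmodulin and phosphorylates the regulatory chains, which strengthens twitches, above all in fast fibres.

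Promoter windows in RefSeq (build GRCr8, 250 bases before to 50 after a start site) were given for 4 of the 6 genes. Those of the fast pair, whose transcripts varied together across the libraries, and of slow Myl3 are shown for comparison, 5′ to 3′ on the gene's strand. Capitals mark a match to a MEF2 site in the second Myl1 window and to a CArG box in Myl3; these are the binding motifs of MEF2 and of serum response factor. Myl1 has a pair of windows because a long and a short protein start from separate promoters, and the deposited values pool both.
Mylpf, chr1:191260039-191260338, plus strand: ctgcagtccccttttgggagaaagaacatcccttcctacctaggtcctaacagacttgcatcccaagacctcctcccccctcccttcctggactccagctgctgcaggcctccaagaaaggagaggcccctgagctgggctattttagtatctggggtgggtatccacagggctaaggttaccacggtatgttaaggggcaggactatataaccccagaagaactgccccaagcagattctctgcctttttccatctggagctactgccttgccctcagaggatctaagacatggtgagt
Myl1 window 1, chr9:75907647-75907946, minus strand: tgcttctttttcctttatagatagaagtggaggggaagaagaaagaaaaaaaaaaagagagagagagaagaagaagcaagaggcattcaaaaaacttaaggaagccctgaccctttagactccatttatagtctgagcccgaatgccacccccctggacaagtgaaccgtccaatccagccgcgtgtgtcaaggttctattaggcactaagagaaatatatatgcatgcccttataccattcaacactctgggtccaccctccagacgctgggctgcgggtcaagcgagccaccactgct
Myl1 window 2, chr9:75897750-75898049, minus strand: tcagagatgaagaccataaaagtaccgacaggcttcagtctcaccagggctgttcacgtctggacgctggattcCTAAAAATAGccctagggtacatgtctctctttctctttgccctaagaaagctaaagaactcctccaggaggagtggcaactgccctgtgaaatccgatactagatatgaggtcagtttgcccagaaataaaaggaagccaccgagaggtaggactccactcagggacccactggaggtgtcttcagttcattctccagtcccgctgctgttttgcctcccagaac
Myl3, chr8:119616844-119617143, plus strand: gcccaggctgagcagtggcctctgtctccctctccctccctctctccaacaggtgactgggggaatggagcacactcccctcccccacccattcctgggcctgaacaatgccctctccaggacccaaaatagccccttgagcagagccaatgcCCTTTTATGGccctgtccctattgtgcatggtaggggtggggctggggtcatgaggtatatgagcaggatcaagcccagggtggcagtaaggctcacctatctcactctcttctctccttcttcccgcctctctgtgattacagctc
Both strands were searched for 3 motifs, and no match overlapped another. The E-box, CANNTG, the motif of MyoD and its relatives, was found in every one of the 5 windows, the fifth being that of Myl4 (chr10:89975900-89976199, plus strand), and in 72.1% of all 33469 rat windows. Its matches were CAGCTG at -155 and CATCTG at 3 in Mylpf, CAAGTG at -92 and CAACTG at -99 in the Myl1 windows, and CAGGTG at -201 in Myl3, counted from the start site. Myl4 had 3. The MEF2 site lay at -176 in Myl1 and the CArG box at -97 in Myl3, and 3.29% and 1.64% of all windows held one. A match is a description of the letters and not evidence of binding.

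Totals of expected counts were 7926445 to 8893843 per library. The RNA carried skeletal muscle fibre markers, with Acta1, Ckm and Des summing to 98365 to 121767 FPKM (fragments scaled to transcript length and library size). SHAM replicate 2 stood apart in fibre-type genes. It had the lowest level of 9 slow-fibre genes (summed 2062 FPKM, against up to 8302 in the other SHAM libraries). Its sum over 11 fast-fibre genes was the highest (109938 FPKM). Of these genes, the myosin heavy chains Myh1 (1675 FPKM) and Myh2 (211 FPKM) were instead lowest in this library.

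**Figure D1:**
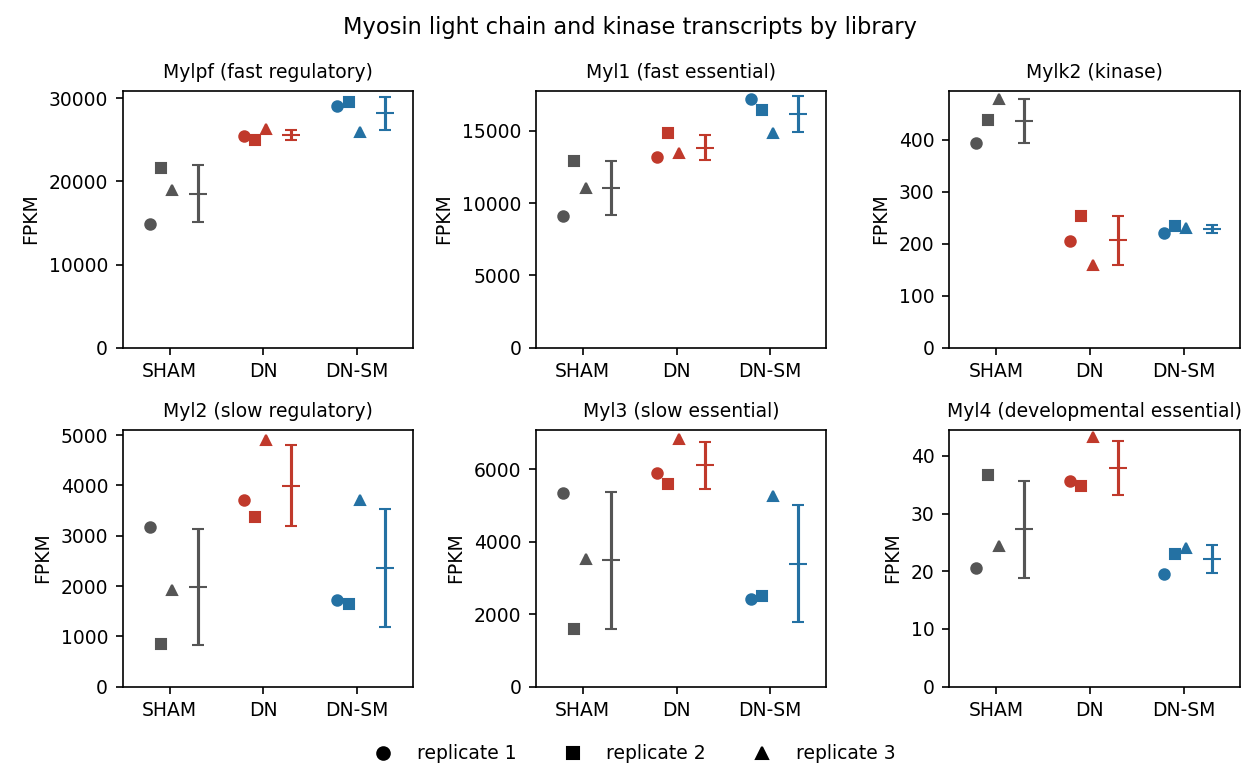
FPKM of each measured gene in each of the 9 libraries (points; shape gives the replicate number) with the group mean ± SD (n = 3). Mylk2 is lower in every injured library than in every SHAM library, and the slow chains Myl2 and Myl3 spread widely within SHAM and DN-SM.

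The fast chains were among the most abundant transcripts of the muscle. By mean FPKM over the 9 libraries Mylpf ranked 3rd, Myl1 8th, Myl3 21st and Myl2 28th, followed by Mylk2 at 245 and Myl4 at 1669. FPKM is scaled to length, so these levels can be set side by side. In the group means Mylpf stood above Myl1, Myl1 above Myl3, Myl3 above Myl2, Myl2 above Mylk2 and Mylk2 above Myl4 in all 3 groups. This order held within every library. The levels of neighbouring genes did not overlap within a group, except those of Myl3 and Myl2 in SHAM and DN-SM.

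Mylk2 carried the clearest difference. Its FPKM was 393, 438 and 479 in SHAM, 206, 254 and 159 in DN, with 220.1, 235 and 231 in DN-SM. Every injured library lay below every SHAM library, and DN-SM lay within the range of DN. The means were 437 ± 42.6 for SHAM, 207 ± 47.5 for DN and 229 ± 7.76 for DN-SM (SD, n = 3).

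Mylk2 fell 2.23-fold in DN against SHAM (log2 fold change -1.16, SE 0.184, adjusted p = 0.00882 by edgeR's quasi-likelihood test with Benjamini-Hochberg adjustment). Of the 6 measured genes it was the 1 past the threshold of 0.05 in that comparison. Over all 10129 genes tested 4.26% passed it, 2.57% upwards and 1.7% downwards. In bulk muscle, fewer fibres of a type and less RNA per fibre cannot be told apart. The call held under all 21 alternative settings, with log2 fold changes from -1.34 to -0.97 and adjusted p from 8.08e-07 to 0.0377.

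In DN-SM against SHAM, which shares its SHAM libraries with the first comparison, Mylk2 fell 1.90-fold (log2 fold change -0.92, SE 0.183, adjusted p = 0.0448 by edgeR). Here too it was the 1 gene of the 6 called, beside 0.839% of all genes. The call was close to the threshold and was lost in 9 of the 21 alternatives, with an adjusted p of 0.105 by limma-voom with sample weights, 0.101 without SHAM replicate 3, 0.0595 without SHAM replicate 2, 0.0739 without DN replicate 1, and 0.174, 0.141 or 0.121 with DN-SM replicate 1, 2 or 3 left out; its direction did not turn in any. Between DN-SM and DN the log2 fold change of Mylk2 was 0.23 (SE 0.182, adjusted p = 0.515 by edgeR), and the libraries overlapped.

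**Figure D2:**
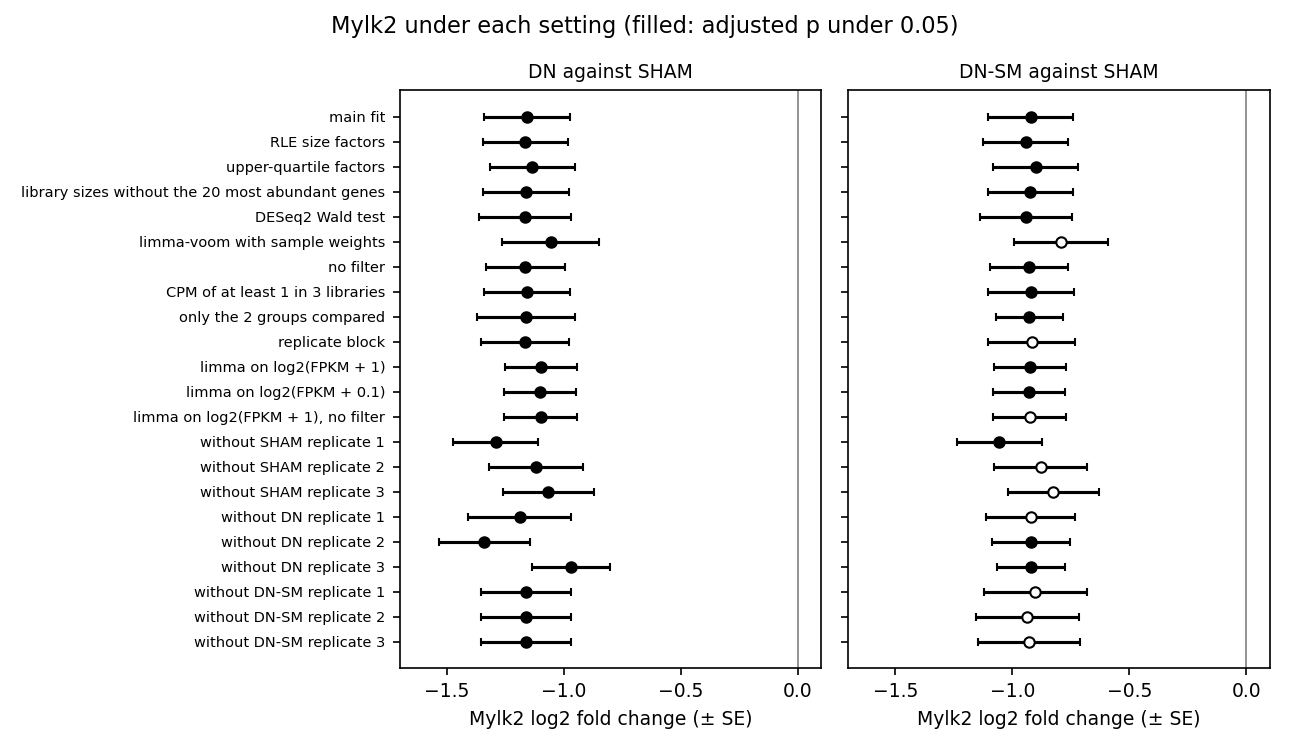
Log2 fold change of Mylk2 (± SE) in DN against SHAM and DN-SM against SHAM under the reported fit and 21 alternatives; filled points passed an adjusted p of 0.05. All points lie below 0; on the left all are filled, on the right 9 of the alternatives are open.

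Set against its substrates, the kinase transcript differed more. Per 1000 FPKM of regulatory chain (Mylpf plus Myl2), Mylk2 stood at 21.8, 19.4 and 22.9 FPKM in SHAM, at 7.05, 8.96 and 5.11 in DN, with 7.14, 7.53 and 7.79 in DN-SM. No injured library came near the SHAM range. The means were 21.4 ± 1.75, 7.04 ± 1.92 and 7.49 ± 0.325 (SD, n = 3), and no test was run on this ratio, since both of its terms are described here.

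Mylpf, the fast regulatory chain, was at 14899, 21673 and 19004 FPKM in SHAM, 25467, 25026 and 26273 in DN, with 29088, 29573 and 25943 in DN-SM. All injured libraries lay above all SHAM libraries, and DN-SM overlapped DN by its replicate 3. The log2 fold change was 0.37 (SE 0.190, adjusted p = 0.271) in DN against SHAM, 0.24 (SE 0.190, adjusted p = 0.529) in DN-SM against DN and 0.61 (SE 0.190, adjusted p = 0.180) in DN-SM against SHAM by edgeR. None passed the threshold, and without SHAM replicate 1, the lowest library, the DN against SHAM value was 0.18 (adjusted p = 0.506). In DN-SM against SHAM Mylpf did pass by DESeq2 (0.59, adjusted p = 0.0409), which called 2.63% of genes, and by limma-voom with sample weights (0.84, adjusted p = 0.0330), which called 1.02%.

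Myl1, the fast essential chain, was at 9141, 12878 and 11041 FPKM in SHAM, 13179.8, 14849 and 13496 in DN, with 17215, 16431 and 14829 in DN-SM. Its order of groups was that of Mylpf, with DN-SM above SHAM in every library and overlapping DN in FPKM. On TMM-scaled CPM, which is length-free and closest to the scale of the fit, Myl1 of DN overlapped SHAM, whereas Mylpf and Myl1 of DN-SM lay above every DN library. The log2 fold change of Myl1 was 0.25 (SE 0.185, adjusted p = 0.453) in DN against SHAM, 0.32 (SE 0.185, adjusted p = 0.371) in DN-SM against DN and 0.58 (SE 0.185, adjusted p = 0.192) in DN-SM against SHAM by edgeR; the last passed by limma-voom with sample weights (0.79, adjusted p = 0.0370). Without SHAM replicate 1 the first was 0.08 (adjusted p = 0.810), and without SHAM replicate 2 it was 0.42 (adjusted p = 0.282).

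The slow chains varied more between libraries of a group than the fast ones. Myl2, the slow regulatory chain, was at 3168, 855 and 1926 FPKM in SHAM, 3714, 3374 and 4908 in DN, with 1720.4, 1642 and 3702 in DN-SM. All DN libraries lay above all SHAM libraries, and DN-SM replicate 3 reached the DN range. Its log2 fold change was 0.98 (SE 0.439, adjusted p = 0.237) in DN against SHAM and -0.66 (SE 0.437, adjusted p = 0.450) in DN-SM against DN by edgeR. The first was 0.63 (adjusted p = 0.486) without SHAM replicate 2, and the second -1.14 (adjusted p = 0.297) without DN-SM replicate 3.

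Myl3, the slow essential chain, was at 5349.8, 1580.5 and 3512 FPKM in SHAM, 5902, 5593 and 6829.7 in DN, with 2415, 2504 and 5247 in DN-SM. DN was highest in every library, above all SHAM and all DN-SM libraries, and SHAM replicate 2 was lowest. Its log2 fold change was 0.78 (SE 0.390, adjusted p = 0.279) in DN against SHAM and -0.75 (SE 0.389, adjusted p = 0.343) in DN-SM against DN by edgeR, so the separation of the libraries was not past the threshold. The first was 0.44 (adjusted p = 0.567) without SHAM replicate 2, and the second -1.21 (adjusted p = 0.267) without DN-SM replicate 3. In DN-SM against SHAM neither Myl2 (0.31, SE 0.436, adjusted p = 0.815) nor Myl3 (0.02, SE 0.387, adjusted p = 0.990) passed by edgeR. The sign there turned for both genes without SHAM replicate 2 (-0.03 and -0.31), without DN-SM replicate 3 (-0.17 and -0.44) and by limma-voom (-0.05 and -0.31).

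Myl4, the embryonic essential chain, was low throughout. Its FPKM was 20.6, 36.7 and 24.5 in SHAM, 35.7, 34.8 and 43.4 in DN, with 19.5, 23.0 and 24.0 in DN-SM. DN overlapped SHAM through SHAM replicate 2, and DN-SM lay below every DN library. The log2 fold change was 0.38 (SE 0.220, adjusted p = 0.337) in DN against SHAM, -0.68 (SE 0.223, adjusted p = 0.187) in DN-SM against DN and -0.30 (SE 0.225, adjusted p = 0.616) in DN-SM against SHAM by edgeR. The DN against SHAM value was 0.70 (adjusted p = 0.0664) without SHAM replicate 2 and 0.16 (adjusted p = 0.695) without SHAM replicate 1; without SHAM replicate 2 the DN-SM against SHAM value was 0.03 (adjusted p = 0.958).

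In DN-SM against DN none of the 6 genes passed by edgeR on all 9 libraries, where 0.00987% of genes did. Of the 6, Myl4 was the 1 gene with an unadjusted p under 0.05, beside 1784 of all 10129 genes. DESeq2, which called 2.19% of genes, called none of the 6 either. Myl4 passed in the fit of DN-SM and DN alone (-0.68, adjusted p = 0.0108), in which 7.21% of genes passed, by limma-voom (-0.70, adjusted p = 0.0340, with 6.2% of genes), and without SHAM replicate 2 (-0.67, adjusted p = 0.0324). It made up 0.0991% to 0.253% of essential chain FPKM over the 9 libraries.

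**Figure D3:**
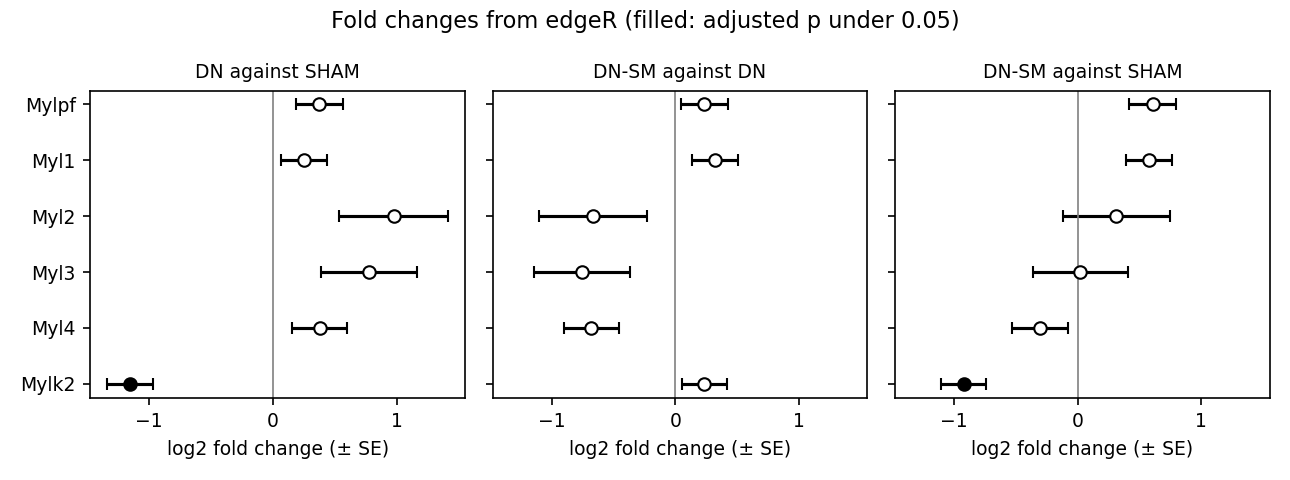
Log2 fold change (± SE) of the 6 genes by edgeR in the 3 comparisons; filled points passed an adjusted p of 0.05. Mylk2 is filled in both comparisons with SHAM, at -1.16 and -0.92, and all 5 light chains are open in all 3.

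Taking libraries that do not overlap between groups as a count, 5 of 6 genes separated in DN against SHAM in FPKM (Mylpf, Myl1, Myl2 and Myl3 above, Mylk2 below), where 22.8% of all tested genes did, 15.9% above and 6.91% below. In DN-SM against DN it was 2 of 6 (Myl3 and Myl4 below) beside 32.7%, with 21.3% below, and in DN-SM against SHAM 3 of 6 (Mylpf and Myl1 above, Mylk2 below) beside 16.8%, with 7.49% above and 9.34% below. On TMM-scaled CPM the counts were 4 of 6 in DN against SHAM (without Myl1), beside 24.3% of genes, 4 of 6 in DN-SM against DN (Mylpf and Myl1 above in addition), beside 30.3%, and 3 of 6 in DN-SM against SHAM, beside 18.3%. The 3 comparisons share libraries in pairs.

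In these libraries the light chains took a larger share of counts and of FPKM in the injured groups than in SHAM. The 5 measured chains together held 2.46%, 2.71% and 2.64% of expected counts in SHAM, 3.58%, 3.65% and 3.83% in DN, with 3.74%, 3.69% and 3.70% in DN-SM. SHAM lay below every injured library, while DN and DN-SM overlapped. In FPKM the shares were 5.18% to 5.97% in SHAM, 7.42% to 7.87% in DN and 7.68% to 7.84% in DN-SM. No test was run on these sums, and none of the 5 chains passed by edgeR in either comparison with SHAM.

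**Figure D4:**
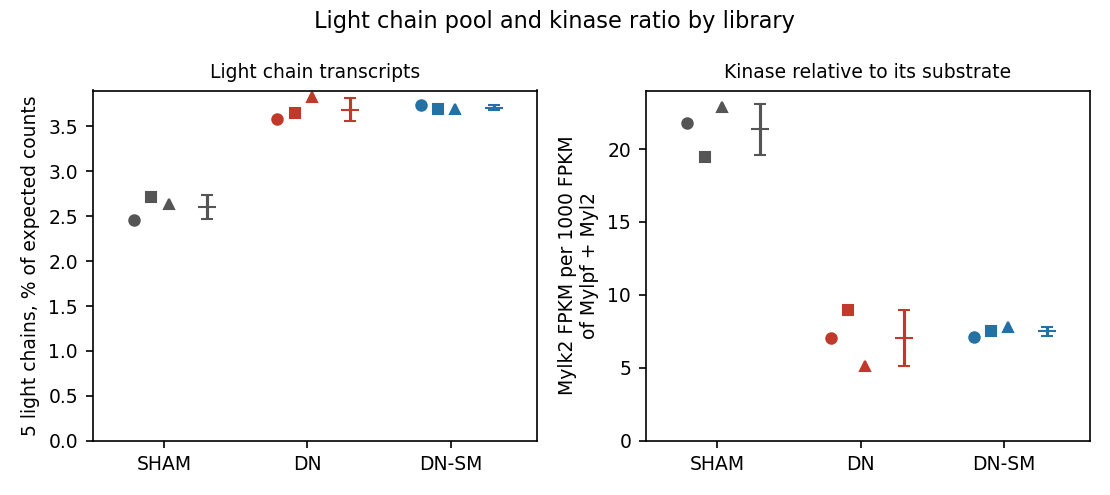
Left, percent of expected counts held by Mylpf, Myl1, Myl2, Myl3 and Myl4 together; right, Mylk2 FPKM per 1000 FPKM of Mylpf plus Myl2. Points are libraries, shaped by replicate number, with the group mean ± SD (n = 3). On the left the SHAM libraries, at 2.46% to 2.71%, lie below all injured ones, and on the right, at 19.4 to 22.9, they lie above all of them.

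The balance of slow and fast chains ranged more widely within SHAM than the group means differed. Myl2 made up 17.5%, 3.79% and 9.20% of regulatory chain FPKM in SHAM, 12.7%, 11.9% and 15.7% in DN, with 5.58%, 5.26% and 12.5% in DN-SM. Myl3 made up 36.9%, 10.9% and 24.1% of essential chain FPKM in SHAM, 30.9%, 27.3% and 33.5% in DN, with 12.3%, 13.2% and 26.1% in DN-SM. For both chains SHAM held the highest and the lowest library of all 9, and the DN libraries stood close together. DN-SM replicates 1 and 2 were low and replicate 3 higher, in both chains. The SHAM means, 10.2% for Myl2 and 24.0% for Myl3, were 6.50% and 17.5% without replicate 1, and 13.4% and 30.5% without replicate 2. Myl3 was the larger share in every library.

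**Figure D5:**
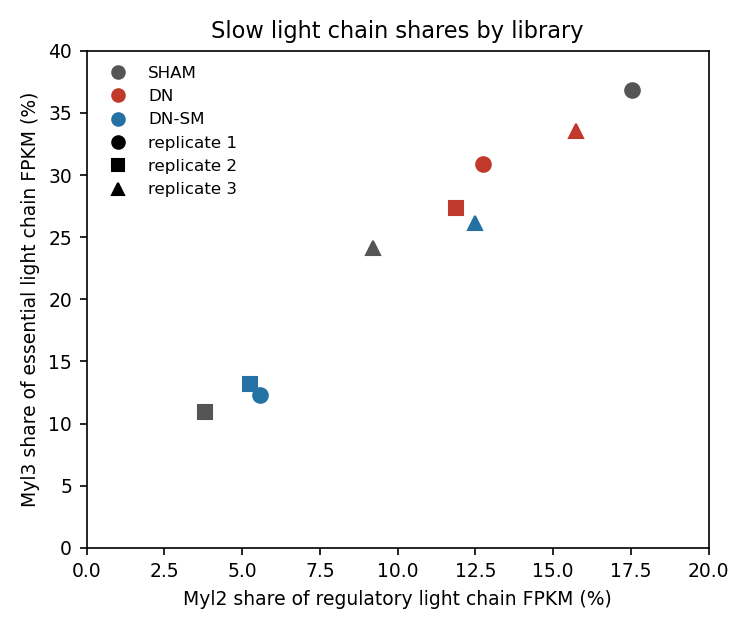
Myl2 as a percent of regulatory chain FPKM (Mylpf plus Myl2) against Myl3 as a percent of essential chain FPKM (Myl1, Myl3 and Myl4), 1 point per library, coloured by group and shaped by replicate number. The libraries lie along one rising line, from SHAM replicate 2 at 3.79% and 10.9% to SHAM replicate 1 at 17.5% and 36.9%.

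The essential and regulatory chains of one fibre type varied together. Across the 9 libraries log2 CPM of Myl2 and Myl3 had a Pearson r of 0.979 and Mylpf and Myl1 of 0.969, while Mylpf and Myl2 had -0.123; these describe libraries that also share a group and a scaling. The ratio of Mylpf to Myl1 in FPKM was 1.63 to 1.72 in SHAM, 1.69 to 1.95 in DN and 1.69 to 1.80 in DN-SM. The ratio of Myl3 to Myl2 was 1.69 to 1.85 in SHAM, 1.39 to 1.66 in DN and 1.40 to 1.53 in DN-SM, so that every SHAM library lay above every injured one. All essential over all regulatory chains came to 0.643 to 0.803 in SHAM, 0.653 to 0.721 in DN and 0.607 to 0.678 in DN-SM, with overlap between all groups.

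The genes most like Myl2, Mylk2, Mylpf and Myl4 were sought outside the set, among 5397 with a mean of at least 5 FPKM, by the same r. For Myl2 they were Tnni1, the slow troponin I (r = 0.995), Actn2, a sarcomeric actinin (0.979), and Tnnc1, the slow and cardiac troponin C (0.973), beside 0.979 for Myl3 within the set. Mylk2 was most like Ankrd9 (0.988), Parp6 (0.978) and Sgsm3 (0.970), and Mylpf, beyond Myl1 at 0.969, most like Pitpnb (0.966), Tef, a transcription factor with a daily rhythm in many tissues (0.961), and Ank1, an ankyrin (0.927). Myl4 had no close match, the nearest being Rps23, a ribosomal protein (0.886).

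Other genes of light chain function mostly stayed under the threshold. A list of 24 genes, which included non-muscle and smooth muscle light chains, other kinases and phosphatase subunits, had 20 measured and 19 tested members. In DN against SHAM 1 was higher and 1 lower by edgeR, beside 2.57% and 1.7% of all genes, and the median log2 fold change was -0.08, against -0.01 over all genes. Ppp1cb, the catalytic subunit of the phosphatase that removes phosphate from light chains, was at 125, 137 and 76.0 FPKM in SHAM, 49.1, 65.2 and 69.4 in DN, with 88.6, 100.3 and 115 in DN-SM. Every DN library lay below every SHAM and DN-SM library. It fell in DN against SHAM (log2 fold change -0.96, SE 0.198, adjusted p = 0.0275 by edgeR), so that the transcripts of the kinase Mylk2 and of this catalytic subunit were both lower there. The phosphatase subunits Ppp1r12a (0.02, adjusted p = 0.982) and Ppp1r12b (0.32, adjusted p = 0.118) did not pass in that comparison by edgeR. The Ppp1cb call was lost in 9 of 21 alternatives, with an adjusted p of 0.0603 or 0.0540 when SHAM replicate 1 or 2 was left out, and of 0.0918, 0.0624 or 0.0903 for DN replicates 1 to 3. The highest was 0.0956.

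Myl12a, a regulatory chain of non-muscle and smooth muscle myosin, was at 419, 238 and 364 FPKM in SHAM, 496.5, 523 and 741 in DN, with 369, 357 and 483 in DN-SM. DN was above the other groups in every library. It rose in DN against SHAM (0.72, adjusted p = 0.0473 by edgeR), and 14 of 21 alternatives lost the call, with an adjusted p of 0.0674 or 0.130 when SHAM replicate 1 or 2 was left out, of 0.0933, 0.0839 or 0.169 for DN replicates 1 to 3, and of 0.0759 or 0.0701 for DN-SM replicate 1 or 2. Non-muscle chains come from other cells too: summed endothelial markers were at 70.2 to 84.8 FPKM in SHAM, 104 to 134 in DN and 93.9 to 100.2 in DN-SM. Of these 5 markers Pecam1 (0.63, adjusted p = 0.0123) and Cdh5 (0.65, adjusted p = 0.0137), the most abundant, rose in DN against SHAM by edgeR. Vwf (0.42, adjusted p = 0.177), Tek (0.03, adjusted p = 0.924) and Kdr (-0.09, adjusted p = 0.778) did not pass by that test. The 7 smooth muscle and pericyte markers, with Acta2 and Tagln the most abundant, summed to 159 to 272, 259 to 282 and 167 to 229 FPKM. Among them 1 passed in DN against SHAM, Lmod1, which fell (-1.10, adjusted p = 0.0150 by edgeR; 0.0853 without DN replicate 3). Myh11 (-0.17) and Cnn1 (-0.43) were also below 0. Acta2 (0.17), Tagln (0.19), Rgs5 (0.17) and Pdgfrb (0.39) were above 0, and the median of the 7 markers was 0.17. The part of these cells in the Myl12a result was not tested.

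In DN-SM against DN none of the 19 passed by edgeR. At an unadjusted p under 0.05 by edgeR 4 were higher and 2 lower, beside 1784 of all 10129 genes in either direction. DESeq2, with 2.19% of all genes called, took 1 as higher, and limma-voom, with 6.2%, took 2 as higher and 1 as lower. The fit of both groups alone, with 7.21%, took 2 as higher, among them Ppp1cb (0.83, adjusted p = 0.00447). That fit took 1 as lower, Myl6, a non-muscle essential chain (-0.40, adjusted p = 0.0420). In DN-SM against SHAM none of the 19 passed by edgeR, DESeq2 or limma-voom. At an unadjusted p under 0.05 by edgeR 2 were higher and 1 lower there, beside 1293 of all 10129 genes in either direction.

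The fibre-type setting of the light chains was described with other genes. Among 11 fast-fibre genes none passed in DN against SHAM by edgeR, and the median log2 fold change was -0.39. At an unadjusted p under 0.05 by edgeR 3 were lower, beside 2256 of all 10129 genes in either direction. DESeq2, with 7.6% of all genes called, took 2 as lower, and limma-voom, with 4.78%, none. Myh4, the fastest myosin heavy chain, was at -2.11 (adjusted p = 0.0625; 0.0307, 0.0332 or 0.0456 with SHAM replicate 1, 2 or 3 left out, and 0.144, 0.158 or 0.200 with DN replicate 1, 2 or 3 left out) and Atp2a1, the fast calcium pump, at -0.51 (adjusted p = 0.160), whereas Mylpf and Myl1 were at 0.37 and 0.25. Without SHAM replicate 2, the library with the most Myh4, Myh4 was at -1.19. Of the 11 genes 2 were above 0 and 9 below by edgeR, and 5 above and 6 below by limma-voom; no test set the light chains against this list. In DN-SM against DN the fast list's median was 0.46, with none past the threshold by edgeR or DESeq2. At an unadjusted p under 0.05 by edgeR 4 were higher, beside 1784 of all 10129 genes in either direction. Limma-voom, with 6.2% of all genes called, took 1 as higher, and the fit of both groups alone, with 7.21%, took 4.

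Among 9 slow-fibre genes none passed in any comparison by edgeR, DESeq2 or limma-voom. By edgeR 1 was higher in DN against SHAM at an unadjusted p under 0.05, beside 2256 of all 10129 genes in either direction. None was under it in DN-SM against DN or in DN-SM against SHAM. The medians were 0.62 in DN against SHAM, -0.35 in DN-SM against DN and 0.22 in DN-SM against SHAM. The last direction was not stable: 7 of the 9 genes were above 0 by edgeR and 1 of 9 by limma-voom. Casq2, the slow and cardiac calsequestrin, was at 1.23 (adjusted p = 0.159) and Tnni1 at 0.98 (adjusted p = 0.271) in DN against SHAM, beside 0.98 for Myl2 and 0.78 for Myl3. Of 4 tested developmental genes 3 rose in DN against SHAM by edgeR (Myh3, the embryonic myosin heavy chain, 2.43, adjusted p = 0.0361; Tnnt2, cardiac troponin T, 1.34, adjusted p = 0.0396; Actc1, cardiac actin, 1.78, adjusted p = 0.0441), beside 2.57% of all genes higher, while Myl4 was at 0.38. None of the 4 passed with the replicate block, or when the fit held just these 2 groups, where 1.57% of genes did. By limma-voom, and by limma on log2(FPKM + 1) and on log2(FPKM + 0.1), 2 passed. Without a filter 1 of 5 tested passed, by edgeR and by limma on log2(FPKM + 1). The Actc1 call was lost in 15 of 21 alternatives, and those of Myh3 and Tnnt2 in 9 each. Calls were also lost without SHAM replicate 1 (Tnnt2 0.102, Actc1 0.0785), SHAM replicate 2 (Tnnt2 0.0969, Actc1 0.157), SHAM replicate 3 (Myh3 0.0540, Actc1 0.0599), DN replicate 1 (0.0613 for Myh3, 0.0623 for Tnnt2, 0.124 for Actc1), DN replicate 2 (Myh3 0.0852, Tnnt2 0.0723) and DN replicate 3 (0.127, 0.163 and 0.131), given as adjusted p. Leaving out a DN-SM library lost Myh3 (replicates 1 and 2), Tnnt2 (replicate 2) and Actc1 (each).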

How the data were processed

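Messenger RNA libraries of gastrocnemius muscle, 9 in all, were sequenced on a BGISEQ-500 from 1 µg of RNA, per the labels. Per the file headers, the authors deposited for each library an expected count per gene, as RSEM writes it, and an FPKM value; the transcript length column gives bases. The tools that the submitters' processing notes name are HISAT2, RSEM and GATK, without versions, and the build is rn6. A gene that a library does not list counted as 0. Gene names came from RefSeq (13649 IDs by ID, 7 by accession, 96 unnamed); the chains are related in sequence, and how shared reads were split is not given in the sources used here.

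Rounded counts were tested with the two-sided quasi-likelihood F test of edgeR 4.0.16 (robust, TMM, R 4.3.3), in 1 fit of all 9 libraries with group as the term. filterByExpr (minimum count 10, minimum total 15) kept 10129 genes. P-values were adjusted by Benjamini-Hochberg over all of them, threshold 0.05. The fit was also run on counts simulated from its own estimates of spread, which cannot show how well it suits these data. Levels are the authors' FPKM. Alternatives were other scalings, DESeq2 1.42.0, limma 3.58.1, filters, pseudocounts of 1 and 0.1 on log2 FPKM, a replicate block, the compared groups alone, and each library left out.

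The genes, lists and rules were chosen with earlier results of these data known. All 6 measured genes are named, with the members of the light chain and phosphorylation list past the threshold, at most 2 per fibre-type list by smallest p, and the 3 genes most alike (log2 CPM, prior count 2). Actc1, Myl6, Myh1, Myh2, Ppp1r12a, Ppp1r12b and the endothelial, smooth muscle and pericyte marker genes were named after their values were seen. A result for 1 further gene is not reported here.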

Additional observations from a re-analysis of the deposited data

How the results depend on the processing

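In DN against SHAM the count of 432 called genes moved to 770 by DESeq2 (358 higher, 412 lower), 156 in the fit of both groups alone, 278, 250 and 131 by limma on log2(FPKM + 1), on log2(FPKM + 0.1) and without a filter, and from 58 to 1183 with 1 library left out. In DN-SM against DN the count of 1 moved to 222 by DESeq2, 628 by limma-voom, 716 in the fit of both groups alone and 0 on log2(FPKM + 0.1) by limma (1742 at an unadjusted p under 0.05), and from 0 to 416 with 1 library left out. In DN-SM against SHAM the count of 85 moved to 266 by DESeq2, 28 in the fit of both groups alone, 39 with the replicate block, 47, 43 and 25 by the limma fits on FPKM, and from 15 to 137 with 1 library left out. The causes were not tested.

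In DN-SM against SHAM, signs turned by limma-voom (Myl2 -0.0457, Myl3 -0.314), without SHAM replicate 2 (Myl2 -0.0285, Myl3 -0.306, Myl4 0.0257, Ppp1cb 0.0960) and without DN-SM replicate 3 (Myl2 -0.175, Myl3 -0.442). With 1 library left out the ranges were -0.175 to 0.714 for Myl2, -0.442 to 0.366 for Myl3, -0.524 to 0.0257 for Myl4 and -0.332 to 0.0960 for Ppp1cb. On log2(FPKM + 0.1) the median of all genes was -0.11 in DN-SM against DN. Same-numbered libraries had correlations of deviations from -0.048 to 0.109 and correlated best with their own number in 4 of 18 checks, so the numbers were not taken as pairs; with the replicate block the counts were 317, 1 and 39, and Mylk2 was at an adjusted p of 0.0700 in DN-SM against SHAM. On counts the mean slow shares were 10.4% (Myl2) and 24.6% (Myl3) in SHAM and 7.95% and 17.6% in DN-SM; without DN-SM replicate 3 the DN-SM means were 5.42% and 12.8%. Since Myl6b had no match, the slow essential share already rested on Myl3 alone, and no separate alternative was run for it.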
